A study of Bos taurus with 6 samples.

Results

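The DNA replication machinery was examined in bovine blastocysts as a set of 46 genes, taken as the rows of the deposited expression table whose gene symbol matched one of 46 listed names. Each name matched 1 row of the 36075 genes in the table. Blastocysts in the MT-treated group came from oocytes matured in vitro for 22 h with 1e-07 mol/L melatonin (MT), and blastocysts in the control group came from oocytes matured without MT. All oocytes were aspirated from ovaries collected at a slaughterhouse and fertilized in vitro with thawed semen, and MT is stated for the maturation medium alone. RNA of 3 libraries per group was sequenced, each library from a pool of 3 blastocysts, and the study states that the 3 libraries of a group came from independent production runs. The age and breed of the ovary donors were not given in the sources used here.

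Replication of the genome begins at origins. The origin recognition complex (ORC) binds DNA there, and CDC6 and CDT1 load the ring-shaped MCM2-7 helicase onto it, a step called licensing that geminin (GMNN) blocks. In S phase the kinase CDC7 with its activator DBF4, and the factors CDC45, GINS and MCM10, turn the loaded ring into an active helicase. Polymerase alpha-primase then lays primers, polymerases delta and epsilon extend them on the sliding clamp PCNA, RPA covers single-stranded DNA, and FEN1 and LIG1 finish the lagging strand. The early embryo divides without much growth, and its supply of these factors comes first from the oocyte and later from its own genome.

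Values were deposited as TPM, a relative transcript abundance in which reads are scaled for transcript length and then for the total of the library, so levels of different genes may be set side by side within a library. TPM holds no read counts, so the depth behind each value is unknown here. Between 8854 and 8953 genes had a TPM above 0 in the control libraries, and between 14372 and 14408 in the MT-treated libraries. Markers of the inner cell mass summed to 532 to 537 TPM in control and 495 to 500 TPM in MT-treated libraries, and those of the trophectoderm to 11500 to 11800 and 10700 to 11000 TPM. In the control libraries, however, the defining trophectoderm factor CDX2, the trophectoderm factor ELF5 and the inner cell mass factor NANOG were listed at 0. SOX2 did not exceed 0.02 TPM there. The trophectoderm factor TFAP2A went the other way, with 31.5 to 38.9 TPM in control and 0.46 to 0.55 TPM in MT-treated libraries. SALL4 and DPPA3 were lower with MT, and POU5F1 had 188 to 191 TPM in control and 191 to 194 TPM in MT-treated libraries. KLF4, GATA2, GATA3 and TFAP2C were higher with MT. The trophectoderm sum was almost all KRT8 and KRT18. Hypoblast markers summed to 58.9 to 60.7 TPM in control and 147 to 160 TPM in MT-treated libraries, with 5 of 8 listed at 0 in every control library and 2 of 8 in every MT-treated library. Of 9 cumulus and granulosa markers in the table, only FSHR reached 1 TPM in any library, and of 10 oocyte markers only OOEP did, with 45.6 to 49.3 TPM in control and 20.5 to 22.5 TPM in MT-treated libraries. Replication genes that dividing cells generally use, among them ORC2, CDC45 and POLD1, are listed at or near 0 in all 3 control libraries. Of all tested genes, 33.8% are listed at 0 there, while log2(TPM + 1) values of libraries of a group correlated at 0.991 or above across genes. Whether these zeros stand for a lack of transcript was not tested, and each difference from a control level of 0 below is a difference between listed values. The part of the marker differences in the results on replication genes was not tested. Fewer cells of a type and less RNA per cell cannot be told apart in pools of whole blastocysts.

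A minimum of 1 TPM in 3 or more libraries was met by 44 of the 46 genes, which were tested. POLE stayed below that level, and POLE2 was listed at 0 in all 6 libraries. In the MT-treated libraries 45 of the 46 genes had a TPM above 0, whereas in the control libraries 30, 31 and 29 did. On the log2(TPM + 1) scale, 24 genes (54.5%) rose and 17 (38.6%) fell with MT at a limma adjusted p-value under 0.05 (Benjamini-Hochberg over all 11953 genes tested), beside 61.6% higher and 34.1% lower among all tested genes. The ranges of the groups did not overlap for 41 of the 44 genes, beside 96.1% of all tested genes. Of the 24 higher genes, 15 passed the minimum level on the MT-treated libraries alone and were bound to differ, so their number is no support for a rise of the set. Median centring on the 5988 genes with at least 1 TPM throughout removed a shift of -0.48 (log2) between the groups, and 29 genes were then higher and 12 lower, so that higher genes made up 70.7% of the called genes in place of 58.5%. Over all tested genes the same share moved alike, from 64.4% to 73.5%. With quantile normalization 23 genes of the set were higher and 17 lower, or 57.5% higher of the called genes, beside 51.1% of the called genes of the table. That scaling forces all libraries onto 1 distribution. Yet 33.8% of tested genes were at 0 in every control library, and 3.01% in every MT-treated library. Low control values thereby rise relative to low MT-treated values. GINS4, at 0 in every control library and at a mean of 3.09 TPM with MT, was given -0.10. Quantile values of genes low in control carry this limit throughout. Summed over the 46 genes, the level was 2220, 2210 and 2190 TPM in control and 1930, 1910 and 1900 TPM with MT. These were 0.237, 0.236 and 0.234% of the listed TPM in control and 0.211, 0.21 and 0.208% with MT. The shift of -0.48 was not removed from this sum or from the sums of complexes below, so they describe the deposited scale alone.

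**Figure D1:**
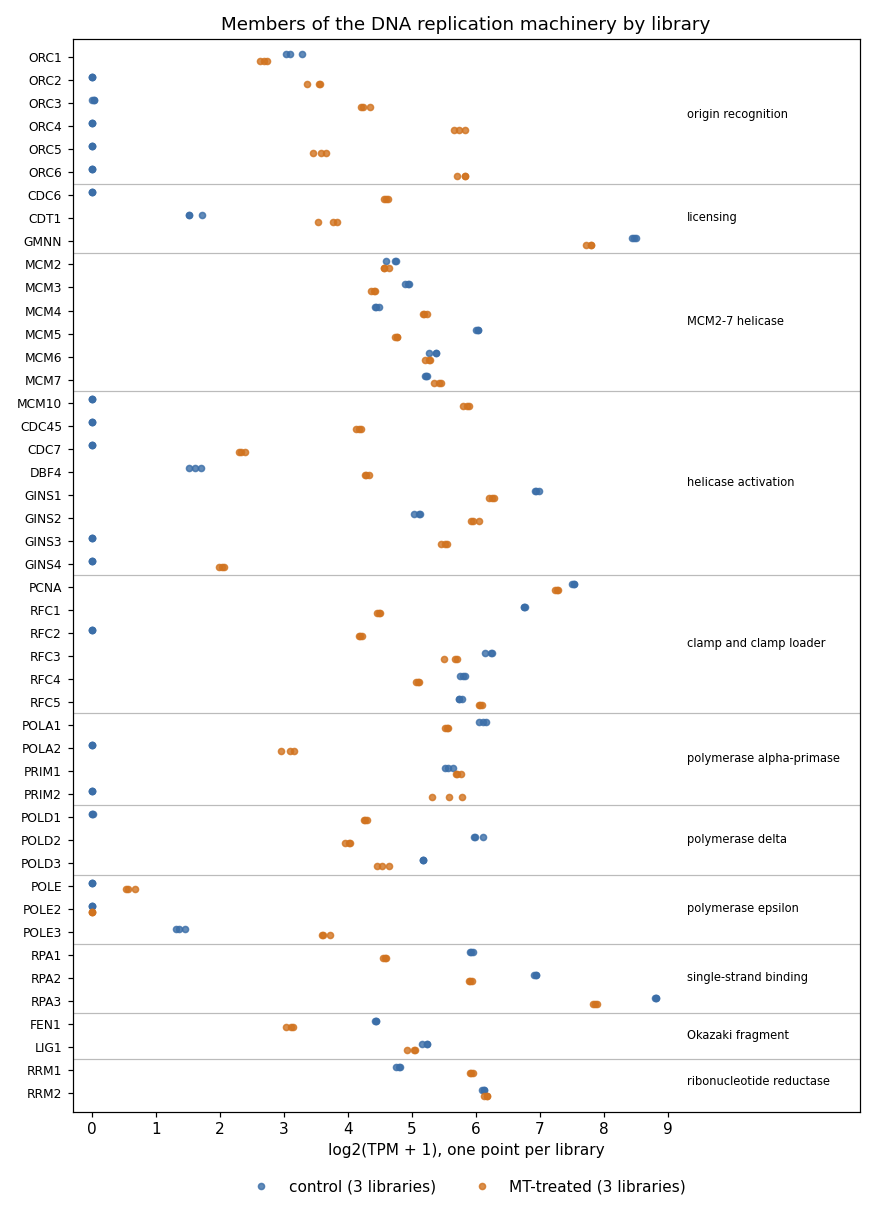
Level of each of the 46 genes on the horizontal axis as log2(TPM + 1), with 1 point per library, control in blue and MT-treated in orange, and genes grouped by role. In the control libraries 15 genes sit at 0 in all 3, and the MT-treated points of 14 of these lie apart from 0.

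Of the 6 subunits of the origin recognition complex, 5 were listed at or near 0 in control and 1, ORC1, was detected in both groups. ORC1, the large ATPase subunit (ENSBTAG00000002719), was the only subunit above 0.03 TPM in the control libraries. It had 7.20, 8.74 and 7.56 TPM in control and 5.69, 5.44 and 5.21 TPM in MT-treated libraries. Its log2 fold change was -0.45 (standard error, SE, 0.07 and limma adjusted p = 0.00107), became -2.29 after quantile normalization and changed sign to 0.03 (limma adjusted p = 0.727) after median centring. The other subunits were all higher in MT-treated blastocysts. ORC6 (ENSBTAG00000001872) was at 0 TPM in all 3 control libraries and reached 55.9, 56.0 and 51.5 TPM after MT. ORC4 (ENSBTAG00000015291) was likewise at 0 TPM in all of these, against 56.0, 49.5 and 52.5 TPM after MT. In the MT-treated libraries these were the highest levels of the complex. ORC2 (9.32, 10.7 and 10.9 TPM) and ORC5 (11.6, 9.98 and 10.9 TPM) were listed at 0 in every control library too. ORC3 had 0.02, 0.03 and 0 TPM in control and 19.4, 17.9 and 17.5 TPM in MT-treated libraries. These 5 genes met the minimum level through the MT-treated libraries alone, so neither a p-value nor a fold change against a level near 0 is given. Over the 6 subunits the sum was 7.85 ± 0.815 TPM in control and 152 ± 5.13 TPM in MT-treated blastocysts (SD, n = 3 each).

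The licensing factors moved in different directions. CDC6, the ATPase that joins ORC to load the helicase (ENSBTAG00000010384), was at 0 TPM throughout the control group and at 22.7, 23.3 and 23.7 TPM with MT. CDT1, its partner in loading (ENSBTAG00000000638), had 1.86, 2.30 and 1.87 TPM in control and 12.6, 10.6 and 13.2 TPM in MT-treated libraries. Its mean was 6.04 times the control mean (log2 fold change 2.12, SE 0.10, limma adjusted p = 1.35e-06), but after quantile normalization the value was -0.27 and no longer called (limma adjusted p = 0.323). GMNN, the inhibitor of CDT1 (ENSBTAG00000017329), fell from 362, 353 and 346 TPM to 223, 221 and 211 TPM (log2 fold change -0.69, SE 0.03, limma adjusted p = 7.14e-07). Geminin stayed far above CDT1 in every library.

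All 6 subunits of the MCM2-7 helicase were detected in every library, although not in equal amounts. In the control libraries they ran from 20.5 to 21.5 TPM for the lowest subunit, MCM4, to 63.5 to 64.6 TPM for the highest, MCM5. In the MT-treated libraries MCM3 was the lowest, at 19.5 to 20.4 TPM, and MCM7 the highest, at 39.8 to 43.1 TPM. The highest subunit was thus 2.99 to 3.13 times the lowest in control and 1.97 to 2.17 times in MT-treated libraries. MCM5 (ENSBTAG00000015595) fell from 63.5, 64.6 and 64.4 TPM to 26.3, 25.7 and 26.2 TPM (log2 fold change -1.27, SE 0.02, limma adjusted p = 1.18e-08). MCM4 (ENSBTAG00000017021) rose from 20.5, 20.6 and 21.5 TPM to 35.1, 36.9 and 35.5 TPM (log2 fold change 0.75, SE 0.03, limma adjusted p = 1.2e-06). These 2 subunits of the same ring changed in opposite directions, and no scaling turned either of them. MCM3 fell by 0.54 on the log2 scale (29.8, 28.8 and 29.95 against 19.5, 20.2 and 20.4 TPM), a call lost after median centring (-0.06, limma adjusted p = 0.0988). MCM7 rose by 0.20 (36.7, 36.2 and 35.8 against 42.2, 39.8 and 43.1 TPM). MCM2 and MCM6 were not called, with log2 fold changes of -0.11 and -0.09 and groups that overlapped, while median centring gave 0.37 and 0.39, both called, and quantile normalization gave -0.12 and 0.17, of which the value of MCM6 was called. The sum of the 6 subunits was 215 ± 1.41 TPM in control and 184 ± 1.19 TPM in MT-treated blastocysts (SD, n = 3 each).

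Of the 8 factors that activate the helicase, 7 were higher with MT and 1, GINS1, was lower, beside 61.6% and 34.1% of all tested genes. The direction of 5 of the 7 was fixed by the minimum level, since they were listed at 0 in every control library. MCM10, which joins the helicase as it starts to unwind (ENSBTAG00000016406), reached 58.3, 57.1 and 55.0 TPM with MT. CDC45, a fixed part of the moving helicase, had 17.4, 16.5 and 17.0 TPM with MT, and the kinase CDC7 had 4.25, 4.03 and 3.95 TPM. Neither of these genes nor MCM10 had any listed level in control. The activator of CDC7 was detected in both groups, with 2.26, 2.05 and 1.86 TPM of DBF4 (ENSBTAG00000014711) in control and 18.5, 18.3 and 19.1 TPM in MT-treated libraries. The mean of DBF4 was 9.06 times that in control (log2 fold change 2.69, SE 0.06, limma adjusted p = 2.56e-08), the largest ratio on the deposited scale among genes of the set with at least 1 TPM in all libraries, whereas after quantile normalization its log2 fold change was below that of RRM1 (1.32).

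The 4 subunits of GINS, which bridges the helicase and CDC45, behaved unlike each other. GINS1 (ENSBTAG00000019984) fell from 126, 122 and 121 TPM to 74.98, 76.97 and 73.29 TPM (log2 fold change -0.71, SE 0.03, limma adjusted p = 6.11e-07). GINS2 (ENSBTAG00000044006) rose from 33.6, 31.8 and 34.0 TPM to 61.3, 59.8 and 65.6 TPM (log2 fold change 0.89, SE 0.04, limma adjusted p = 2.24e-06). GINS3 and GINS4 were at 0 TPM throughout control. With MT, GINS3 had 46.1, 42.9 and 44.8 TPM and GINS4 had 3.18, 2.98 and 3.10 TPM, although quantile normalization turned the value of GINS4 to -0.10. In ratio on the deposited scale, the sum over the 4 subunits differed less than any single subunit, with 156 ± 3.07 TPM in control and 185 ± 2.11 TPM in MT-treated blastocysts (SD, n = 3 each).

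**Figure D2:**
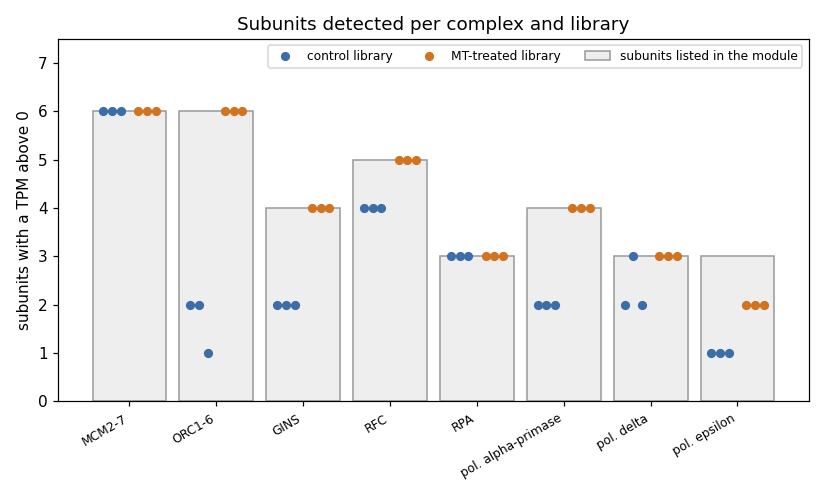
Number of subunits with a TPM above 0 in each library (points, control in blue and MT-treated in orange) for 8 complexes, over the number of subunits in the set (grey bars, from 0), which leaves out POLD4 and POLE4. The control points reach the top of the bar for MCM2-7 and RPA, and for polymerase delta in 1 library, where POLD1 had 0.01 TPM, while the MT-treated points miss it for polymerase epsilon alone.

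On the deposited scale the sliding clamp differed less between the groups than its loader, which did not hold against the loader subunit RFC3 after median centring. PCNA (ENSBTAG00000006065) had 184, 184 and 181 TPM in control and 153, 154 and 150 TPM in MT-treated libraries (log2 fold change -0.26, SE 0.02, limma adjusted p = 1.78e-05). Quantile normalization gave -0.02, which was not called, and median centring reversed the sign to 0.22. The loader RFC joins the large subunit RFC1 with the small subunits RFC2 to RFC5. RFC1 (ENSBTAG00000014515) fell from 107, 109 and 107 TPM to 21.1, 21.8 and 21.4 TPM. This was the largest fall of the 46 genes on the deposited scale (log2 fold change -2.28, SE 0.02, limma adjusted p = 1.34e-09), whereas FEN1 (-2.94), POLD2 (-2.56) and ORC1 (-2.29) were lower than RFC1 (-2.23) after quantile normalization. RFC1 went from the highest of the 5 subunits in control to the next to lowest in MT-treated libraries. RFC2 (ENSBTAG00000018589) was listed at 0 in all controls and had 17.8, 17.2 and 17.2 TPM with MT. RFC4 fell from 54.6 ± 1.32 to 33.1 ± 0.548 TPM and RFC3 from 72.9 ± 2.98 to 48.6 ± 3.86 TPM (SD, n = 3 each), the latter call being lost after median centring (-0.10, limma adjusted p = 0.204). RFC5 rose from 52.8 ± 0.916 to 66.3 ± 0.956 TPM (SD, n = 3 each).

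Polymerase alpha-primase and polymerase delta each held subunits listed at or near 0 in control, namely POLA2, PRIM2 and POLD1, which met the minimum level through the MT-treated libraries alone. The catalytic subunit POLA1 fell from 70.8, 68.0 and 65.5 TPM to 44.9, 46.2 and 45.7 TPM (log2 fold change -0.57, SE 0.03, limma adjusted p = 5.31e-06), with a value of -0.09 (limma adjusted p = 0.0482) after median centring, whereas its accessory subunit POLA2 was at 0 TPM in all 3 control libraries and reached 7.57, 7.97 and 6.79 TPM after MT. PRIM1, which makes the RNA primer, rose slightly, from 46.7 ± 1.94 to 52.0 ± 1.43 TPM (SD, n = 3 each, log2 fold change 0.15, limma adjusted p = 0.00859). PRIM2, the large primase subunit (ENSBTAG00000007937), was at 0 TPM throughout the control group and at 38.9, 46.9 and 54.2 TPM with MT, a wider spread than that of most other genes of the set. For polymerase delta, the catalytic subunit POLD1 (ENSBTAG00000011083) had 0, 0.01 and 0 TPM in control and 18.1, 18.4 and 18.8 TPM in MT-treated libraries. Its accessory subunit POLD2 (ENSBTAG00000012241) fell from 62.7, 61.9 and 68.1 TPM to 14.5, 15.3 and 15.4 TPM (log2 fold change -2.02, SE 0.05, limma adjusted p = 4.21e-08). POLD3 fell from 35.2 ± 0.060 to 22.5 ± 1.51 TPM (SD, n = 3 each). In the MT-treated libraries the 3 delta subunits of the set lay within 1.37 to 1.58 times of each other, which was not the case in control.

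Polymerase epsilon was represented in the set by 3 of its subunits, whose sum was 1.6 ± 0.128 TPM in control and 12 ± 0.546 TPM in MT-treated blastocysts (SD, n = 3 each). Its small subunit POLE4, from the separate list of other replication genes, had 488, 486 and 484 TPM in control and 408, 394 and 391 TPM in MT-treated libraries, far above them. The catalytic subunit POLE was listed at 0 in all controls and had 0.60, 0.48 and 0.45 TPM with MT, below the level required for testing. POLE2 was listed at 0 throughout. POLE3, a histone-fold subunit (ENSBTAG00000000252), had 1.49, 1.74 and 1.57 TPM in control and 11.1, 12.2 and 11.3 TPM in MT-treated libraries (log2 fold change 2.27, SE 0.05, limma adjusted p = 5.48e-08). Quantile normalization, which raises low control values relative to low MT-treated values, reversed the direction to -0.40 (limma adjusted p = 0.0252).

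The 3 subunits of RPA, the complex that coats single-stranded DNA, were lower in MT-treated blastocysts, as were the lagging-strand enzymes FEN1 and LIG1, although LIG1 turned under both other scalings. RPA3 (ENSBTAG00000013168), the smallest subunit and the highest of the 46 genes in every library, fell from 445, 448 and 452 TPM to 237, 231 and 227 TPM (log2 fold change -0.95, SE 0.02, limma adjusted p = 2.21e-08). RPA2 fell from 123, 122 and 119 TPM to 60.7, 59.3 and 58.8 TPM. RPA1, the large DNA-binding subunit, fell from 58.9, 61.5 and 60.01 TPM to 23.2, 23.0 and 22.4 TPM (log2 fold change -1.36, SE 0.03, limma adjusted p = 2.62e-08). The order of the 3 subunits was the same in all 6 libraries, and all 3 remained lower and called after median centring and quantile normalization. FEN1, the nuclease that trims Okazaki fragments (ENSBTAG00000000064), fell from 20.7, 20.7 and 20.5 TPM to 7.21, 7.69 and 7.88 TPM (log2 fold change -1.33, SE 0.04, limma adjusted p = 1.3e-07), and the value was -2.94 after quantile normalization. LIG1, the ligase that seals them, fell from 36.0 ± 1.21 to 31.2 ± 1.46 TPM (SD, n = 3 each, log2 fold change -0.20, limma adjusted p = 0.00465), but the direction was reversed to 0.28 by median centring and to 0.02, no longer called, by quantile normalization.

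The subunits of ribonucleotide reductase, which supplies deoxyribonucleotides, differed in response. RRM1 (ENSBTAG00000013111) rose from 26.1, 27.2 and 26.8 TPM to 61.1, 60.1 and 58.9 TPM (log2 fold change 1.14, SE 0.03, limma adjusted p = 5.32e-08). RRM2 (ENSBTAG00000008216) had 67.6, 69.3 and 68.7 TPM in control and 71.6, 68.9 and 71.6 TPM in MT-treated libraries, groups that overlapped, and was not called (log2 fold change 0.04, limma adjusted p = 0.123). RRM2 was called at 0.52 after median centring and at 0.33 after quantile normalization.

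In all 6 libraries 29 of the genes reached 1 TPM. This requirement itself shifts the balance of directions, since all 15 tested genes that it leaves out were higher with MT, so the counts are given only beside those of the table under the same requirement. Of the 29, 9 were higher, 17 lower and 3 not called, with a median log2 fold change of -0.45. Among all 5988 genes at this level in all libraries, 36.4% were higher and 55.6% lower, with a median of -0.27, so the shares of 31.0% and 58.6% in the set were close to those of the table. The median size of the log2 fold change was 0.70 in the set and 0.83 in the table. Median centring gave 14 higher and 12 lower genes with a median of 0.03, beside 53.6% and 38.6% with a median of 0.21 in the table. Differences of at least 2-fold on this scale were found for 4 higher genes (DBF4, POLE3, CDT1 and RRM1) and 6 lower genes (RFC1, POLD2, RPA1, FEN1, MCM5 and RPA2), though POLE3 and CDT1 changed sign after quantile normalization. These are 13.8% and 20.7% of the 29 genes, beside 15.7% and 27.2% of the 5988. After median centring RPA1 (-0.88), FEN1 (-0.85), MCM5 (-0.79) and RPA2 (-0.53) were lower by less than 2-fold, while GINS2 (1.37) and MCM4 (1.23) were higher by more than 2-fold. Centring adds the same amount to every log2 fold change of the table. The shares of the 5988 genes at this size were not computed after it, so no counts of the set are compared. The spread between libraries was small beside these differences, with a median coefficient of variation over the 29 genes of 2.26% in control and 2.54% in MT-treated blastocysts. With 3 libraries per group, the smallest p that an exact permutation test (two-sided) allows for 1 gene is 0.1.

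**Figure D3:**
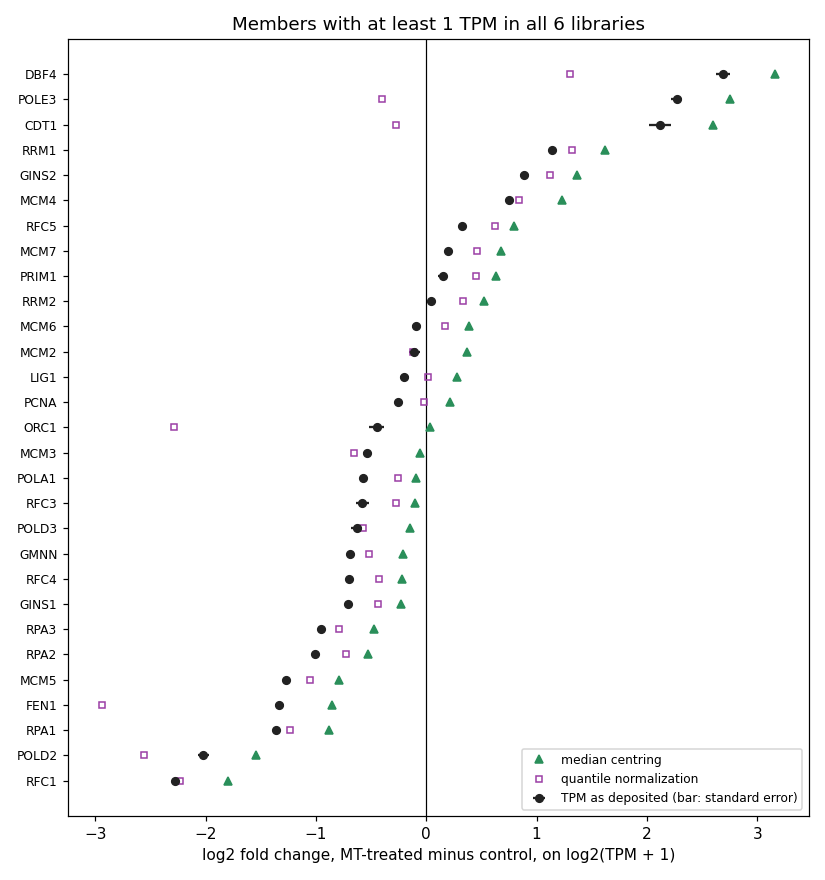
Log2 fold change (MT-treated minus control, log2(TPM + 1) scale) of the 29 genes with at least 1 TPM in all 6 libraries, as deposited (black, bars are standard errors), after median centring (green) and after quantile normalization (purple). RFC1, POLD2, RPA1, FEN1 and MCM5 lie to the left and RRM1, GINS2, MCM4 and DBF4 to the right of 0 under all 3, while CDT1 and POLE3 turn with quantile normalization, ORC1, MCM2 and PCNA with median centring, and MCM6 and LIG1 with both.

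Ratios of partner genes within a library do not depend on the library total, since it cancels. The pairs were chosen after their values were seen and carry no test. RFC1 was 1.99, 2.08 and 2.05 times RFC5 in the control libraries and 0.318, 0.333 and 0.318 times in the MT-treated libraries. MCM5 was 3.07 ± 0.0756 times MCM4 in control and 0.728 ± 0.0277 times in MT-treated blastocysts (SD, n = 3 each), and the order of these 2 subunits was thus turned. The same was seen for POLD2 over POLD3, at 1.82 ± 0.0994 and 0.672 ± 0.0497 (SD, n = 3 each), and for POLA1 over PRIM1, at 1.46 ± 0.0108 and 0.877 ± 0.0199 (SD, n = 3 each). GINS1 remained above GINS2 in both groups, at 3.72 ± 0.146 and 1.21 ± 0.0859 times (SD, n = 3 each). GMNN was 195, 154 and 185 times CDT1 in control and 17.7, 20.8 and 16.1 times in MT-treated libraries. RRM1 was 0.389 ± 0.00342 times RRM2 in control and 0.850 ± 0.0251 times in MT-treated blastocysts (SD, n = 3 each). The clamp PCNA was 8.88 ± 0.0414 times its partner FEN1 in control and 20.1 ± 1.16 times in MT-treated blastocysts (SD, n = 3 each). In proportion RPA3 over RPA1 moved least of the 9 pairs, from 7.46 ± 0.144 to 10.1 ± 0.077 (SD, n = 3 each).

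**Figure D4:**
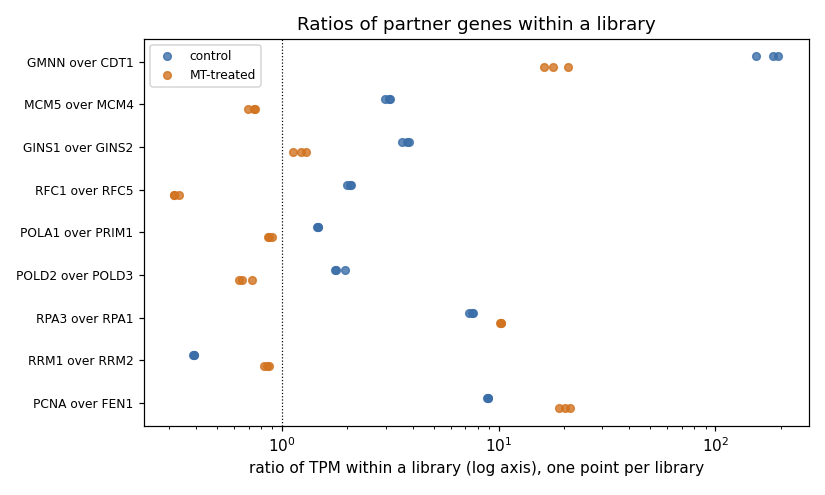
Ratio of the TPM of 2 partner genes within each library on a log axis, with 1 point per library, control in blue and MT-treated in orange, and a dotted line at a ratio of 1. The points of the groups are apart for all 9 pairs, and those of RFC1 over RFC5, MCM5 over MCM4, POLD2 over POLD3 and POLA1 over PRIM1 lie on opposite sides of the line.

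Genes listed at 0 in every control library made up a share of the set close to that in the table. They were 13 of the 44 tested genes (29.5%), beside 33.8% of all tested genes, and none of the 44 was listed at 0 in every MT-treated library, beside 3.01% of all tested genes. No p-value is given for the 13 genes, because they entered the test through the MT-treated libraries alone, and after quantile normalization GINS4 alone of these was reversed. The share in the table depended on the level in MT-treated blastocysts. At a mean of 1 to 5 TPM, 54.5% of all tested genes were listed at 0 in control, together with both genes of the set in that range, CDC7 and GINS4. At 5 to 20 TPM the share was 47.2%, and 5 of 13 genes of the set were at 0. At 20 to 60 TPM it was 27.6%, and 6 of 21 were at 0, namely ORC4, ORC6, CDC6, MCM10, GINS3 and PRIM2. Above 60 TPM it was 3.65%, and none of 8 was at 0. With the depth unknown, a TPM of 0 sets no upper limit for a transcript.

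Other genes of DNA replication were taken from a separate list of 49, of which 48 were found in the table and 45 were tested. Of the 45, 26 (57.8%) rose and 18 (40%) fell with MT by limma, beside 61.6% and 34.1% of all tested genes, and with quantile normalization 21 were higher and 22 lower, beside 46.4% and 44.4% of all tested genes. As in the set, 18 of the 26 met the minimum level through the MT-treated libraries alone and were bound to be higher, TOPBP1 and CHTF18 among them. Among those above 0 in all 6 libraries, the highest fold changes on the deposited scale were those of TOPBP1, a scaffold of origin firing, from 0.707 ± 0.085 to 37.8 ± 2.18 TPM, and of CHTF18 of an alternative clamp loader, from 0.0933 ± 0.0404 to 16.6 ± 1.01 TPM (SD, n = 3 each). RNASEH2C, a subunit of the ribonuclease that removes RNA from DNA, rose from 45.0 ± 2.51 to 168 ± 8 TPM (SD, n = 3 each). It ranked above CHTF18 after quantile normalization. DCTPP1, which clears dCTP and its modified forms, rose from 95.9 ± 2.60 to 272 ± 14.7 TPM (SD, n = 3 each). The largest falls were in MCM8, MTBP, DONSON and MCMBP. MTBP, which acts in origin firing, fell from 82.1, 103 and 71.6 TPM to 9.43, 6.45 and 5.65 TPM, and DONSON, a factor that helps assemble the helicase, from 25.5 ± 0.505 to 2.90 ± 0.130 TPM (SD, n = 3 each). MCMBP, a binding protein of MCM subunits, fell from 18.6 ± 0.436 to 2.81 ± 0.274 TPM (SD, n = 3 each).

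MCM8 and MCM9 form a helicase of their own that acts in repair and meiosis. MCM8 fell from 47.2, 43.2 and 46.7 TPM to 1.02, 1.74 and 1.25 TPM (log2 fold change -4.33, SE 0.12, limma adjusted p = 8.89e-08). MCM9 was at 0 TPM in all 3 control libraries and reached 31.7, 30.1 and 23.1 TPM after MT. It was 1 of 14 tested genes of this list at 0 in every control library (31.1%), of which RRM2B, CHAF1A and TIPIN had the next highest levels, with 26.7 to 27.8, 21.6 to 24.1 and 21.3 to 22.5 TPM in MT-treated libraries. DTL, a factor that directs CDT1 to degradation, was the only gene of this list detected in control and listed at 0 in every MT-treated library, with 1.73, 2.09 and 1.79 TPM in control.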

How the data were processed

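RNA of 3 control and 3 MT-treated pools of bovine blastocysts was analysed as deposited. Per the labels and the study's methods, reads were checked with fastp and FastQC 0.11.9, aligned with STAR 2.7.9a and counted with featureCounts (Subread 1.6.3). The labels name the genome ARS-UCD1.2 and a TruSeq kit, whereas the methods name ARS-UCD1.3 and Smart-seq2. TPM were deposited for each gene, with 2 decimals, and the step from counts to TPM was not given in the sources used here. No value column was left unused. Neither depth nor counting error can be derived from TPM, so no interval for counting error is given.

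The titles of the samples gave the groups and replicate numbers. Values were transformed to log2(TPM + 1). A linear model was fitted in limma 3.58.1 (R 4.3.3) to genes reaching 1 TPM in 3 libraries or more, with variances moderated toward a trend on mean level (lmFit, eBayes). The Benjamini-Hochberg adjustment ran over all 11953 of these genes, at a threshold of 0.05. The procedure was tested on simulated data. That simulation changed few genes and held none at 0 in a single group, so it does not cover these features of the data. The study's DESeq2 needs counts and could not be used. Figures were drawn with matplotlib 3.10.9 under Python 3.11.15.

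The genes of the set, the other replication genes and the marker lists were chosen with earlier results of these data known. Every gene of the set is named. Of the other replication genes, those named are the 4 largest called changes in each direction on the deposited scale among genes above 0 in all libraries with groups that do not overlap, and up to 4 genes listed at 0 throughout a group with the highest levels in the other. POLE4 and POLD4 are named besides, as further subunits of polymerases epsilon and delta. Levels of subunits and ratios are descriptions without a test. Promoter motifs were not analysed here. The alternatives were a pseudocount of 0.1, other minimum levels, quantile normalization, median centring, eBayes without the trend, a replicate block and leaving out each library in turn with the tested genes kept.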

Additional observations from a re-analysis of the deposited data

How the results depend on the processing

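The counts of higher and lower genes of the set, 24 and 17, ranged from 24 to 25 and from 17 to 18 when each library was left out in turn. Restricting the fit to genes above 0 in all 6 libraries left 9 higher and 17 lower of 29 genes of the set, 10 higher other replication genes and 2814 higher genes of the table (40.6% higher and 52.4% lower of 6925), and by construction 0 genes of the set at 0 in control. Median centring reversed ORC1 (0.03), MCM2 (0.37), MCM6 (0.39), PCNA (0.22) and LIG1 (0.28), and quantile normalization reversed CDT1 (-0.27), MCM6 (0.17), GINS4 (-0.10), POLE3 (-0.40) and LIG1 (0.02), all as log2 fold changes. Deviations of libraries with the same replicate number had correlations of -0.0115, -0.000679 and 0.0588 across genes. Such values cannot show whether the groups shared runs. The study states that its treatments ran side by side in each run. It does not say that equal replicate numbers mark the same run, so the pairing was used as an alternative only. With the replicate block 24 genes of the set were higher and 18 lower, since MCM6 was then called (-0.09, adjusted p = 0.0346 by limma). MCM2 was called without control replicate 2 (-0.16), MCM6 without control replicate 3 (-0.13) and RRM2 without MT-treated replicate 2 (0.06). Without a minimum level POLE was added to the higher genes, which made 25, although at 0 in every control library it could only be higher. The pseudocount, the trend and the other minimum levels changed no call among those of the 44 genes that they could test. Without a count of reads, depth sets no stated limit for the genes listed at 0.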
